A study of Caenorhabditis elegans with 2 samples.

Results

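The peaks described here are places in the Caenorhabditis elegans genome where the zinc finger protein F26F4.8, tagged with EGFP, was recovered between protein-coding genes and away from annotated small RNA genes. They were chosen by 3 things: a place in either of the 2 pooled peak lists that passed the authors' threshold of an irreproducible discovery rate (IDR) of 0.01, a summit more than 200 bp from any tRNA, pseudogenic tRNA, snoRNA, snRNA, rRNA or miRNA gene, and a summit outside every protein-coding gene. Of the 1140 thresholded peaks in the union of both lists, 259 met the position rule (22.7%). The IDR estimates how often calls of a given rank fail to recur between replicates. Membership was therefore selected on signal and, except for 41 members missing from the conservative list of the 2, on agreement between replicates. The height of the signal is given here as a description only.

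The chromatin came from whole fourth-stage (L4) larvae of strain OP776, collected 48 hours after synchronisation as starved first-stage larvae. These worms carry the insertion wgIs776, which holds F26F4.8 fused to TY1, EGFP and 3xFLAG together with a rescuing copy of unc-119, in the background of the unc-119 allele tm4063. There was 1 group of 2 biological replicates, and no wild-type, untagged or input sample was analysed here. Precipitation was with anti-GFP per the sample descriptions, although the antibody field of the labels names F26F4.8, and sonicated fragments were 200 to 800 bp long. Whole larvae hold every tissue of the animal, so a site used in few cells and a site weakly used in many cannot be told apart.

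RNA polymerase III transcribes tRNA genes and other short RNA genes. On tRNA genes it is recruited through a pair of sequence elements inside the gene, the A box near the start and the B box further along, which the assembly factor TFIIIC recognises. tRNA-like sequences also occur outside annotated genes, since tRNA genes have given rise to pseudogenes and to short interspersed repeats that spread through genomes with their boxes. C2H2 zinc finger proteins, the class to which F26F4.8 is annotated, commonly bind DNA through their fingers.

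The intergenic peaks below are numbered by decreasing pooled signal, which is the authors' own value per peak in the peak caller's arbitrary units. The first set of sequences shows the element that the most members had in common, a stretch resembling the pseudogenic tRNA gene Y94H6A.t1. Coordinates are those of ce11 and strands are as printed. Capitals mark matches to the A box (TGGCNNAGTGG or TAGCNNAGTGG) or the B box (GGTTCGANNCC) with at most 1 mismatch, and each line runs 5′ to 3′.
Y94H6A.t1, chrIV:2740214-2740286, plus strand: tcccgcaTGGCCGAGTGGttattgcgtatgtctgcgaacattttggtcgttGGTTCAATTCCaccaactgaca
Peak 1, chrV:1561377-1561447, plus strand: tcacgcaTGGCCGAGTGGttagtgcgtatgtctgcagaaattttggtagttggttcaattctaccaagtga
Peak 9, chrX:13973294-13973366, plus strand: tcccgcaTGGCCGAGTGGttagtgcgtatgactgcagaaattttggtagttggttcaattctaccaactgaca
Peak 14, chrIV:8412675-8412746, minus strand: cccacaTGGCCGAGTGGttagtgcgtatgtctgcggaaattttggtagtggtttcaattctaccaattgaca
Peak 17, chrIV:4949925-4949997, plus strand: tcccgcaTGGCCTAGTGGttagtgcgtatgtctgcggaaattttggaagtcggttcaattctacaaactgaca
Peak 20, chrII:4928493-4928564, minus strand: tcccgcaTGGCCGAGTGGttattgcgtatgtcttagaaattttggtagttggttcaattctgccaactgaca
In all 5 of these peaks the A box was intact, whereas the place of the B box held a sequence more than 1 mismatch away from it.

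The second set shows members with both boxes that belonged to no copy of Y94H6A.t1. They are printed from 12 bp before the A box to 40 bp after the B box.
Peak 10, chrIII:1601538-1601644, minus strand: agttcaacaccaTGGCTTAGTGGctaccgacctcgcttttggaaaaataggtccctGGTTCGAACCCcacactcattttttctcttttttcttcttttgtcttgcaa
Peak 13, chrIII:2031294-2031400, minus strand: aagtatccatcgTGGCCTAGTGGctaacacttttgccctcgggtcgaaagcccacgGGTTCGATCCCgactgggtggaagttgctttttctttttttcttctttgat
Peak 33, chrIV:11196944-11197049, minus strand: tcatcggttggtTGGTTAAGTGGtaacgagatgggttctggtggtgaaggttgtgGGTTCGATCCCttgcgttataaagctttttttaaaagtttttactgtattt
Peak 38, chrIII:9110942-9111047, minus strand: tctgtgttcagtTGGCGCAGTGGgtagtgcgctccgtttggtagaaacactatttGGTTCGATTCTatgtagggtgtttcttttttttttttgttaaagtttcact
The third set shows members with a B box but no A box, from 60 bp before the box to 40 bp after it.
Peak 7, chrII:7042204-7042314, plus strand: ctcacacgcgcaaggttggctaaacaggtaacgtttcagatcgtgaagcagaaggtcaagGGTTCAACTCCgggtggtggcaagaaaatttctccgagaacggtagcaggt
Peak 8, chrII:14497000-14497110, plus strand: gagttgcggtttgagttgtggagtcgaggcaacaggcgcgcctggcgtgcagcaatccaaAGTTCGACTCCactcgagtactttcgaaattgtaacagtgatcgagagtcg
Peak 15, chrV:18712186-18712296, plus strand: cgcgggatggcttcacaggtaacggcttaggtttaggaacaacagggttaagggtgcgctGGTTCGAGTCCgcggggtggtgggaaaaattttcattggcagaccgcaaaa

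The pooled signal of the 259 intergenic peaks ran from 36.1 to 235, with a median of 79.9 and quartiles of 71.7 and 101. The other 35910 ranked peaks that met the same position rule had a median of 22.8, and the members were 259 of 36169 ranked intergenic peaks (0.716%). Thresholded peaks inside introns had a median signal of 78.6 (205 peaks), those in exons 74.2 (250 peaks), and those within 200 bp of a small RNA gene 110 (426 peaks). Both pooled lists held 171 of the members, the conservative list alone held 47 and the other list alone held 41. Nearly all members, 256 of 259, were 264 bp wide, so width carries no information on them.

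Just inside the threshold of the conservative list, the 5 members with the highest IDR had values of 0.00973 to 0.00988 and pooled signals of 69.5 to 72.1. They lay at chrI:14084203-14084466, chrIV:118904-119167, chrI:2275174-2275437, chrI:11629147-11629410 and chrII:3031321-3031584. The 5 intergenic ranked peaks just outside it had an IDR of 0.0101 to 0.0108 and signals of 65.8 to 71.7. They lay at chrI:12685012-12685275, chrX:16893790-16894053, chrII:6974838-6975101, chrII:6428709-6428972 and chrI:12756218-12756481. The signals on either side of the threshold therefore overlapped.

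Each replicate was also called alone. Replicate 1 had an own ranked peak at 255 of the 259 members and a thresholded one at 63, and replicate 2 had 257 and 63. Thresholded peaks of both replicates covered 43 members (16.6%, 95% Wilson interval 12.6 to 21.6), those of exactly 1 replicate covered 40, and 176 members passed in neither. By the same position rule, 66 of 18034 ranked peaks passed in replicate 1 (0.366%) and 66 of 17498 in replicate 2 (0.377%). Intervals given here cover counting error only, and peaks that share sequence are not independent.

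Where both replicates had a ranked peak (253 members), their signals had a Spearman's rho of 0.41 and a Pearson's r of 0.56 on log2 values, across peaks of the same pair of libraries. Both numbers describe peaks mostly already selected for agreement, apart from those among the 41 members missing from the conservative list. Signal was higher in replicate 1 at 167 of the 253 members, with a median log2 ratio of 0.17. The widest gaps were at peak 236 (chrV:1199694-1199957), where the signal was 55.9 in replicate 1 and 12.8 in replicate 2, and at peak 237 (chrX:3722608-3722871), where it was 18.5 and 49.9. Both are among the lower members, and neither had a thresholded peak in both replicates. Neither was in the conservative list.

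**Figure D1:**
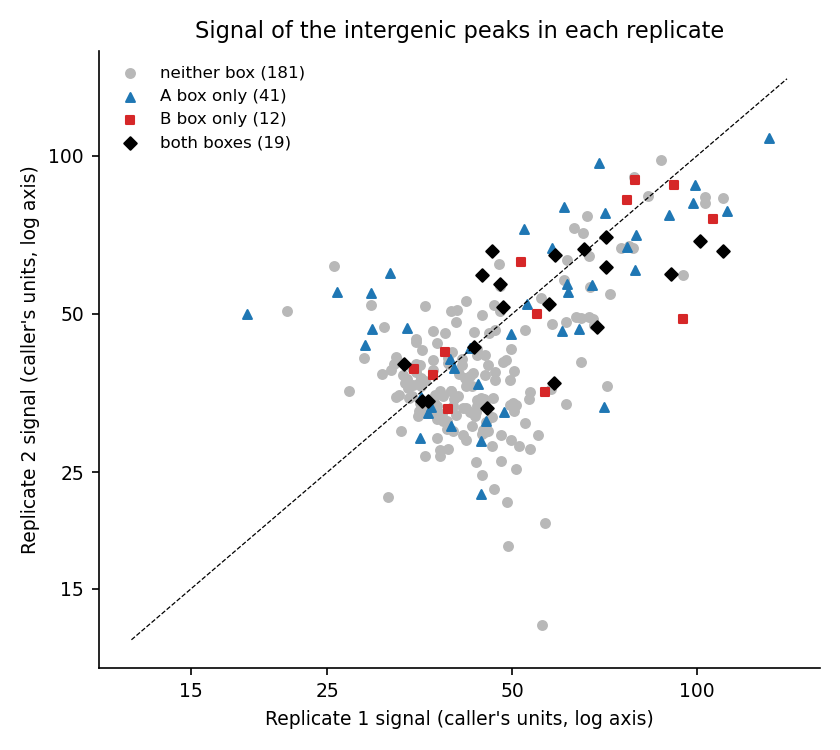
Signal of each intergenic peak in replicate 1 (x axis) and replicate 2 (y axis), each from that replicate's own ranked list, in the caller's units on log axes. Each point is 1 peak, marked by the boxes found within 100 bp of its summit, and the dashed line marks equal signal. Points spread from 18.5 to 131 in replicate 1 and from 12.8 to 108 in replicate 2, and peaks with a box reach the upper right.

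The 20 members with the highest pooled signal, from 156 to 235, lay on all 6 chromosomes, and both replicates had an own thresholded peak at each of the 20. An A or B box lay within 100 bp of 14 of these summits. Similarity to a pseudogenic tRNA gene was found for 10 of them, and 7 were inside or copies of an annotated ncRNA gene. Of the 20, 1 had no box, no small RNA match and no noncoding gene, namely peak 4, which is a tandem repeat. A protein-coding transcription start site (TSS) lay within 500 bp of 2 of the 20.

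Peak 1 (chrV:1561329-1561414), the highest of all at 235 pooled, had a signal of 131 in replicate 1 and 108 in replicate 2. It resembled Y94H6A.t1 and lay 8282 bp from the nearest TSS, that of the chemoreceptor gene srsx-8. Peak 2 (chrX:1837750-1838013), at 199 pooled, 112 in replicate 1 and 78.3 in replicate 2, lay inside the annotated pseudogene T26C11.3 and had 1 copy in the genome. Peak 5 (chrII:7200140-7200403), at 187 pooled, 103 in replicate 1 and 83.6 in replicate 2, lay in mrpr-1, the gene of the RNA of ribonuclease MRP, which cleaves precursors of ribosomal RNA. Peak 8 (chrII:14496909-14497172), at 184 pooled, 106 in replicate 1 and 75.8 in replicate 2, lay in the ncRNA gene K10H10.14, of unstated function. Peak 16 (chrII:5353748-5354011) stood at 162, peak 18 (chrI:14686508-14686771) at 161 and peak 19 (chrIV:2664947-2665048) at 160. In each of these peaks both replicates were high relative to the median of all members, which was 44.4 in replicate 1 and 39.1 in replicate 2.

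Boxes were frequent among the members. An A box with at most 1 mismatch lay within 100 bp of the summit, on either strand, at 62 of 259 members (23.9%, interval 19.1 to 29.5) and at 4.46% of the other ranked intergenic peaks. A B box was found at 31 members (12%, interval 8.56 to 16.5) against 2.05%, and both at 19 (7.34%, interval 4.75 to 11.2) against 0.459%. Either box was found at 28.6% (interval 23.4 to 34.4) against 6.05%. Among the 66 intergenic peaks of replicate 1's own thresholded list the share was 48.5%, among the 66 of replicate 2's it was 53.0%, and among the 44 members with an IDR of at most 0.001 it was 59.1%. Among as many of the other ranked peaks, taken from the top by signal, the share with either box was 10.8% (interval 7.59 to 15.2). Of those 259 peaks, 117 had passed the IDR threshold but stood in neither thresholded list. Without such peaks, a choice made after seeing the data, the 259 highest that remained had signals of 62.7 to 81.3 and a share of 9.65% (interval 6.62 to 13.9). Thresholded intronic peaks lay between, at 20.5% (interval 15.5 to 26.5). With 0 mismatches allowed, the members' share was 16.2% and that of the other ranked peaks 0.771%.

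Part of that share came from copies. With 1 member kept per sequence family, 22.7% of 181 peaks had either box (interval 17.2 to 29.3). Among the 156 members in no family the share was 21.2% (interval 15.5 to 28.2), and both intervals lay above the value for the other ranked peaks.

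A boxes lay closer to the summits in members than in the other ranked peaks. Of the 62 members with an A box, 23 were relatives of Y94H6A.t1, and no distance is given with 1 member per family. Taking the nearest match in each peak, the median distance from summit to A box was 13 bp in 62 members and 40 bp in 1603 other ranked peaks, and 88.7% of the members' A boxes (interval 78.5 to 94.4) were within 50 bp against 61.2%. For the B box the medians were 37 bp in 31 members and 43.5 bp in 736 others, and the share within 50 bp was 71.0% (interval 53.4 to 83.9) against 57.9%, a value inside that interval. All 19 members with both boxes had them in order on 1 strand, with a median of 44 bp from the start of the A box to the start of the B box and a range of 43 to 53 bp. In 453 annotated tRNA genes with both boxes the median was also 44 bp, with quartiles of 43 and 45. No order or spacing is given for the 165 other ranked peaks with both boxes, and relatives among the 19 members were each counted. A run of 4 T within 40 bp after the B box, the letters at which RNA polymerase III commonly stops, was present in 22 of the 31 members with a B box (71.0%, interval 53.4 to 83.9) and in 55.7% of the 736 others, again inside the interval.

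**Figure D2:**
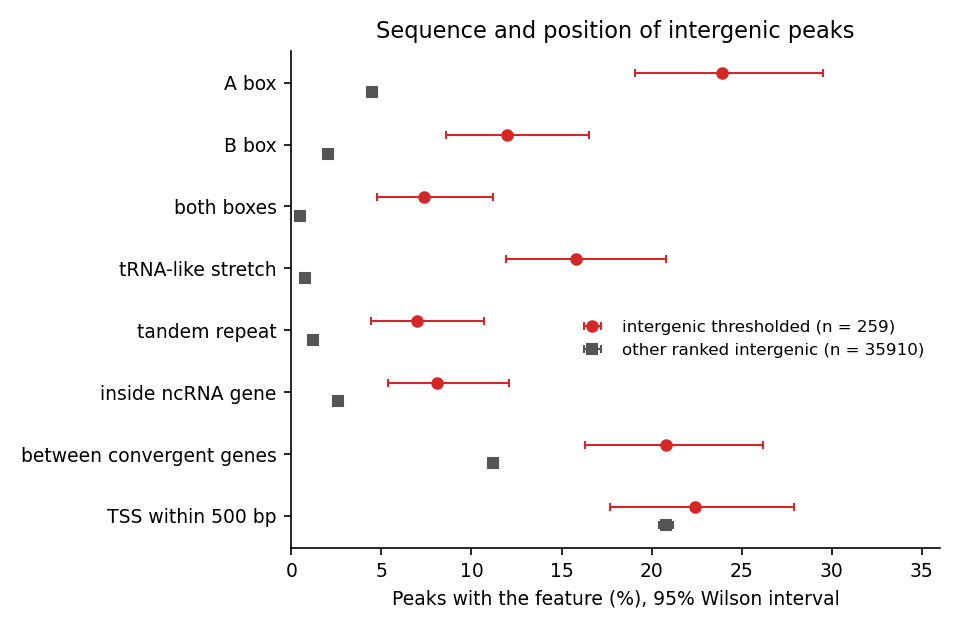
Percentage of peaks (x axis) with each feature (y axis) among the 259 intergenic thresholded peaks (circles) and the 35910 other ranked intergenic peaks (squares), with 95% Wilson intervals as bars. The boxes, tRNA-like stretches, tandem repeats, ncRNA genes and convergent gene pairs were more frequent in the former, while the interval for a TSS within 500 bp holds the value of the latter.

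Members with both boxes had a median pooled signal of 111 (19 peaks), those with a B box alone 111 (12 peaks), those with an A box alone 93.0 (43 peaks) and those with neither 77.6 (185 peaks). The ranges overlapped widely, since peaks without a box reached 191. Highest of the members with both boxes was peak 10 (chrIII:1601501-1601764), at 180 pooled, 110 in replicate 1 and 66.0 in replicate 2, which lay 489 bp from the TSS of sms-3. Peak 13 (chrIII:2031249-2031512), in a single-copy sequence 9786 bp from the TSS of ckr-2, had a pooled signal of 169, 101 in replicate 1 and 68.7 in replicate 2. Peak 21 (chrI:852103-852366) had 152, peak 29 (chrIV:16731313-16731576) 141 and peak 32 (chrIII:6661711-6661974) 134.

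Among members with a B box alone, peak 7 (chrII:7042139-7042402) was highest at 185 pooled, 91.8 in replicate 1 and 87.8 in replicate 2. A 107-bp stretch of it was 94.4% identical to the snoRNA gene Y6B3B.15, which lies elsewhere in the genome. Peak 15 (chrV:18712139-18712402) followed peak 8 at 164, with 79.3 in replicate 1 and 89.9 in replicate 2. Peak 22 (chrX:6207728-6207991) had 149 pooled but 94.9 in replicate 1 and 48.9 in replicate 2. It lay in the ncRNA gene C14F11.14, and peak 126 (chrX:3347911-3348174, signal 80.6), which lay in the ncRNA gene ZK816.8, matched C14F11.14 at 84.6% over 136 bp.

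Sequence similarity to a tRNA or pseudogenic tRNA gene, over at least 30 bp at 80% identity, was found for 41 members (15.8%, interval 11.9 to 20.8), for 9.76% of thresholded intronic peaks and for 0.769% of the other ranked intergenic peaks. The share was 30.3% in replicate 1's own thresholded list, 37.9% in replicate 2's and 38.6% at an IDR of at most 0.001. Over at least 50 bp, 34 members matched a tRNA, pseudogenic tRNA or snoRNA gene. Y94H6A.t1 was the match of 23 of them, K10B2.t1 of 3, F53B1.t1 of 3, and Y22D7AR.t1, Y39B6A.t5, Y69A2AR.t3 and the snoRNA genes Y6B3B.15 and K02F6.11 of 1 each. The peaks matching K10B2.t1 were peak 11 (chrV:5667391-5667654, signal 177), peak 16 and peak 41 (chrV:5591973-5592236, signal 122), and all 3 had own thresholded peaks in both replicates. Those matching F53B1.t1 were peak 70 (chrI:6265037-6265300, signal 98), peak 170 (chrV:1304260-1304523, signal 75.2) and peak 225 (chrV:1797833-1798096, signal 67.5). Peak 234 (chrIV:15853445-15853708), at 65.1, matched K02F6.11 at 84.9% over 159 bp. Peak 64 (chrIII:2030829-2031092, signal 102) matched Y22D7AR.t1 at 87.9%, and peak 103 (chrIII:2290606-2290869, signal 85.3) matched Y39B6A.t5 at 81.7%. Peak 19, inside the overlapping ncRNA genes Y69A2AR.37 and Y69A2AR.38, matched Y69A2AR.t3 at 80% over 60 bp.

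The 23 relatives of Y94H6A.t1 lay on all 6 chromosomes, 8 of them on X. Their identity to the gene was 83.6% to 91.8%, all 23 held an A box near the summit and 3 held a B box as well. None was within 500 bp of a TSS, the closest being 560 bp away. Their pooled signals ran from 64.5 to 235 with a median of 113. The highest after peak 1 were peak 9 (chrX:13973286-13973364) at 182, with 99.2 in replicate 1 and 87.8 in replicate 2, peak 14 (chrIV:8412601-8412864) at 167, with 89.9 and 77, and peak 17 (chrIV:4949784-4950047) at 161, with 69.3 and 97.0. Peak 20 (chrII:4928430-4928693) stood at 156 and peak 25 (chrIII:2494784-2495047) at 144. Of the 22 with a ranked peak in both replicates, 12 were higher in replicate 2, and own thresholded peaks were present at 11 of the 23 in replicate 1 and 14 in replicate 2.

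The genome held 68 copies of Y94H6A.t1 over at least 80% of its length at 80% identity, the gene included. By alignments of at least 132 bp around the summit, genome copies ran from 2 at peak 53 to 75 at peak 106 among the 23 members. Shared sequence could therefore run past the 73 bp of the gene, within which boxes and identity were measured. Of the 68 copies, 23 carried a member, 12 another thresholded peak, 23 a ranked peak that did not pass, and 10 no ranked peak. Every one of the 68 held an A box with at most 1 mismatch, and the median identity was 89.0% at members, 87.6% at copies with another thresholded peak, 88.9% at copies with a ranked peak only and 87.5% at copies with no ranked peak. An exact A box was present in 22 of the 23 copies with a member, 8 of the 12 with another thresholded peak, 21 of the 23 with a ranked peak only and 4 of the 10 with none. A B box with at most 1 mismatch was present in 3 of the 23 copies with a member and 1 of the 12 with another thresholded peak. It was present in 7 of the 23 with a ranked peak only and 3 of the 10 with none, so it was not more frequent at copies with a thresholded peak. Neither the presence of the A box nor identity to the gene separated copies with a thresholded peak from those without one. How reads that match several places were handled is not given in the sources used here, and its part in the signal at near-identical copies was not tested.

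**Figure D3:**
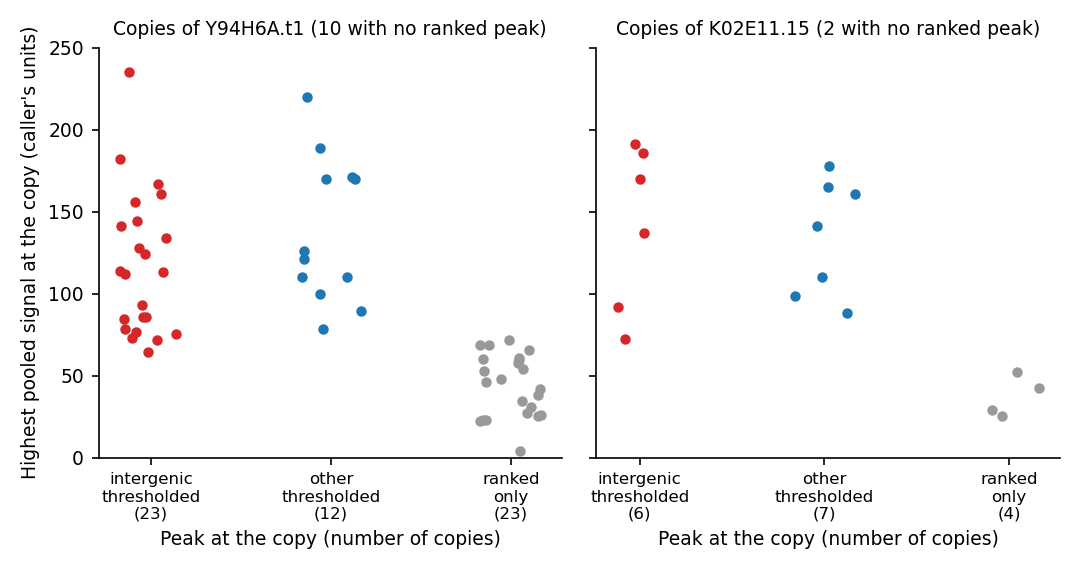
Highest pooled signal (y axis, caller's units) at each genome copy of Y94H6A.t1 (left) and of the ncRNA gene K02E11.15 (right), by the kind of peak at the copy (x axis). Each point is 1 copy, and copies with no ranked peak have no point. At copies of Y94H6A.t1, ranked peaks that did not pass reach 71.7, above the lowest member at 64.5, and at copies of K02E11.15 they reach 52.4, below the lowest member at 72.6.

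In all, 103 members (39.8%, interval 34.0 to 45.8) shared at least 50 bp at 80% identity with another member, in 25 families. Of these families 16 had 3 members or more. No share with such relatives is given for the other ranked peaks. The median pooled signal was 91.8 in the 103 and 77 in the 156 others, with ranges that overlapped. By copies over the whole genome (at least 132 bp at 80% identity), 47.1% of members had 1 copy (interval 41.1 to 53.2) against 74.5% of every 20th other ranked peak (1796 peaks, interval 72.4 to 76.5). More than 10 copies were found for 31.7% (interval 26.3 to 37.6) against 13.8%, and more than 100 for 5.41% against 5.35%.

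**Figure D4:**
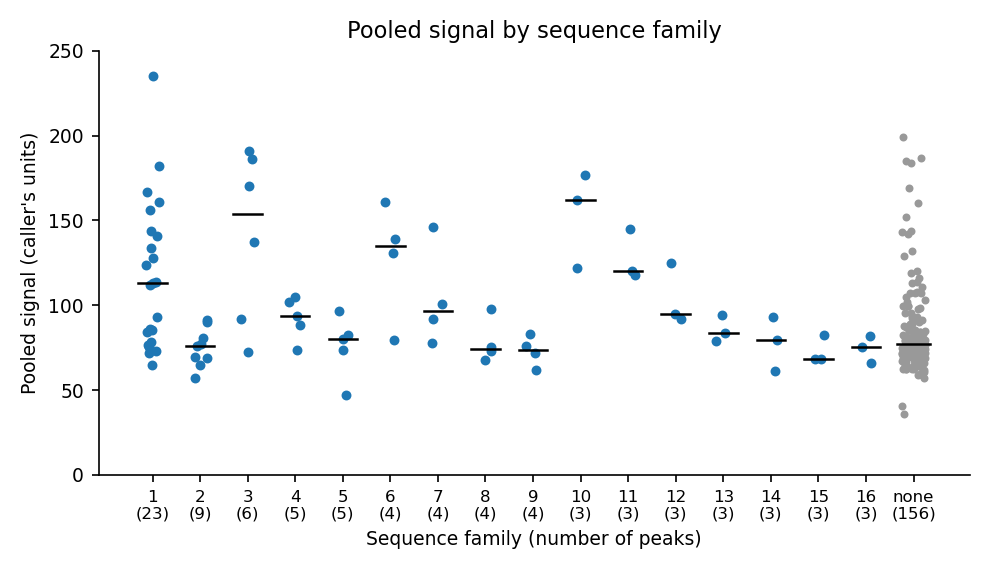
Pooled signal (y axis, caller's units) of each intergenic peak by sequence family (x axis, families of 3 or more, with the number of peaks in parentheses) and of peaks in no family. Points are peaks and bars are medians. Family 1, the relatives of Y94H6A.t1, spans 64.5 to 235, and family 3, the copies of K02E11.15, has the second highest median at 154.

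Family 2, the second largest, had 9 members on 4 chromosomes with pooled signals of 57.1 to 91.2, and 1 of them had an A box. Family 3 consisted of copies of the ncRNA gene K02E11.15, a gene of unstated function. The gene and its copy under peak 3 are shown, with capitals in the copy marking the 6 bases of 167 that differ.
K02E11.15, chrV:14237609-14237775, plus strand: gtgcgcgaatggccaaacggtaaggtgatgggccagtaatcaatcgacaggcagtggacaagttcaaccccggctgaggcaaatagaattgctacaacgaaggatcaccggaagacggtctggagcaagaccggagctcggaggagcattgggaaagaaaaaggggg
Peak 3, chrV:15767490-15767656, minus strand: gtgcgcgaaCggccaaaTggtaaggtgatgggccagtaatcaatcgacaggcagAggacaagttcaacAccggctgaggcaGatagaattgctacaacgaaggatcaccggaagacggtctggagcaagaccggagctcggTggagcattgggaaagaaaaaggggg
The 6 members of this family lay on V and IV at 95.2% to 100% identity. Peak 3 (chrV:15767482-15767745) had a pooled signal of 191, 110 in replicate 1 and 83.0 in replicate 2. Peak 6 (chrV:7548619-7548882), 1172 bp from the TSS of the ferritin gene ftn-1, had 186 pooled, 87.2 in replicate 1 and 98.1 in replicate 2. Peak 12 (chrV:14237544-14237807), on the annotated gene itself, had 170 pooled, 83.3 and 83.9. Peak 31 stood at 137, peak 85 at 92.1 and peak 184 at 72.6, so that copies with nearly the same sequence differed in listed signal. How reads matching several copies were placed is not known here, and its part in these values was not tested. None of the 6 had an A box with at most 1 mismatch, and 1 had such a B box. Looser matches were not searched for. The genome held 19 copies over at least 80% of the gene's length. Apart from the members, 7 carried other thresholded peaks, all inside protein-coding genes, 4 carried a ranked peak only and 2 carried none.

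Another family was found just past the ends of histone genes on chromosome IV. Histone genes encode the proteins around which DNA is wound, and the mRNAs of those expressed during DNA replication end in a short stem and loop in place of a poly(A) tail. The 5 members shared 45 to 48 bp, at 89.6% to 93.6% identity, with the ncRNA gene ZK131.12, whose sequence the ncRNA gene ZK131.13 repeats. Capitals in the copies mark bases that differ from ZK131.12, and each copy shown holds the complementary blocks ggccct and agggcc, 4 bases apart.
ZK131.12, chrII:13819547-13819596, plus strand: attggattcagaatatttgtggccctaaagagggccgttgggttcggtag
Peak 63, chrIV:7487600-7487645, plus strand: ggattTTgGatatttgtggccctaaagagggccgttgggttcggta
Peak 79, chrIV:11407462-11407507, minus strand: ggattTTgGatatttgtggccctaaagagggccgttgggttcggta
Peak 177, chrIV:11400344-11400391, plus strand: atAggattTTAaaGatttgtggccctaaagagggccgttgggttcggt
The copy under peak 63 (chrIV:7487542-7487805, signal 102) began 35 bp past the annotated end of his-60, that under peak 79 (chrIV:11407404-11407667, signal 93.8) 34 bp past his-64, and that under peak 177 (chrIV:11400155-11400418, signal 73.4) 23 bp past his-66. The stretch under peak 61 (chrIV:11323804-11324067, signal 105) began 24 bp past the end of his-47, and that under peak 95 (chrIV:11327014-11327277, signal 88.1) 42 bp past the end of his-45. The inverted repeat, GGCCCT and AGGGCC with any 4 bases between them, was intact in 4 of the 5 aligned stretches and not in that under peak 61. It lay within 100 bp of the summit at 4 members (1.54%, interval 0.602 to 3.90) and at 6 of the 35910 other ranked peaks (0.0167%). The repeat was chosen after seeing the sequences of this family, so the gap between these shares follows from that choice. Of 72 histone genes, 56 had this repeat within 100 bp past the end. At 4 of the 56 a member overlapped that stretch, at 2 another thresholded peak, at 9 a ranked peak only and at 41 no ranked peak. Many histone genes are near-identical copies, so the share of reads each received is uncertain.

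Tandem repeats, in which at least 80% of the 264-bp window matched itself after a shift of 5 to 60 bp, made up 18 members (6.95%, interval 4.44 to 10.7) and 1.23% of the other ranked peaks. The summit regions of the highest ones off the first chromosome are shown without capitals.
Peak 4, chrX:17442705-17442825, plus strand: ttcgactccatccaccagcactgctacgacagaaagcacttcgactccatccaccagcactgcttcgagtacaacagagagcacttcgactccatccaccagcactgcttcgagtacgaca
Peak 23, chrII:696881-697001, plus strand: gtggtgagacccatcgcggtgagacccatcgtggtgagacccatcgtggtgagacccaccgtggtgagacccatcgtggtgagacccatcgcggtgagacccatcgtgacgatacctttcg
Peak 4 (chrX:17442633-17442896), with a unit of 45 bp, had a pooled signal of 188, 103 in replicate 1 and 81.2 in replicate 2. Its neighbour peak 35 (chrX:17444760-17445023) had the same unit length and 130. Peak 23 (chrII:696809-697072), with 30 bp, had 146, 94.7 in replicate 1 and 59.2 in replicate 2, and peak 24 (chrIII:2499348-2499611), with 25 bp, had 145, 77.5 and 67.3. By the measure of genome copies, peaks 4 and 35 had 1 copy, peak 24 had 51 and peak 23 had 123. The part of repeated sequence in their signal was not tested.

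Base composition differed too. The median GC content within 50 bp of the summit was 49.5% in members (quartiles 43.6 and 53.5), 38.6% in the other ranked intergenic peaks (quartiles 32.7 and 44.6) and 48.5% in thresholded intronic peaks. Members with neither box had a median of 48.5%, so the peaks without a box were also rich in GC. Among the 6-mers within 50 bp of summits, TGGCCG or its reverse complement was found in 15.1% of members and 2.57% of the others, and AGTGGT in 15.4% and 3.76%. Both overlap the A box of the Y94H6A.t1 relatives, and their shares were 6.08% and 7.73% with 1 member per family. GGTTCG, the start of the B box, was found in 11.2% of members, in 12.7% with 1 per family, and in 1.95% of the others. AAAAAT was less frequent in members, at 23.9% against 42.8%. These 6-mers were picked from both ends of a ranking by this difference in the same peaks. The gaps therefore follow partly from that choice.

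**Figure D5:**
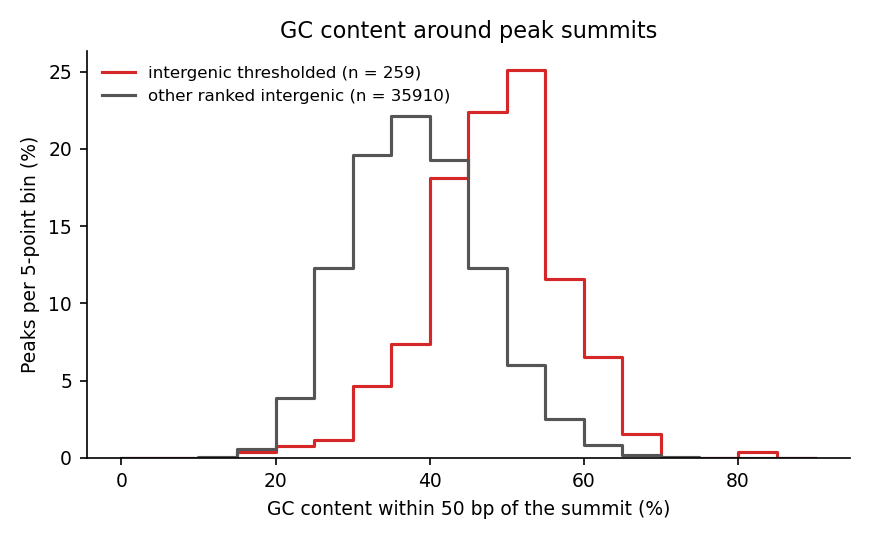
Distribution of GC content within 50 bp of the summit (x axis, %) as the percentage of peaks in each bin of 5 points (y axis) for the 259 intergenic thresholded peaks and the 35910 other ranked intergenic peaks. The distribution of the thresholded peaks lies to the right, with medians of 49.5% and 38.6%.

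In distance to the TSS of protein-coding genes the members resembled the other ranked intergenic peaks, whereas the orientation of the flanking genes differed. A TSS was within 500 bp of 58 members (22.4%, interval 17.7 to 27.9) against 20.8%, and the median distance was 1790 bp against 1622 bp. Members lay between convergent genes more often, at 20.8% (interval 16.3 to 26.2) against 11.2%, and between divergent genes less often, at 27.0% (interval 22.0 to 32.7) against 33.3%. The nearest gene end was a 5′ end for 52.3% of members (interval 46.2 to 58.3) against 60.8%. The summit fell in an annotated gene that is not protein-coding for 37 members (14.3%, interval 10.5 to 19.1) against 12.4%. Of these, 21 were ncRNA genes (8.11%, interval 5.36 to 12.1, against 2.57%), 13 were pseudogenes (5.02%, interval 2.96 to 8.40, against 9.10%) and 3 were long intergenic noncoding RNA genes.

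Chromosome X held 42 members (16.2%, interval 12.2 to 21.2) against 21.5% of the other ranked peaks, and 12 of the 205 thresholded intronic peaks (5.85%, interval 3.38 to 9.95). Chromosome IV held 48, I held 45, II held 43, V held 41 and III held 40. On V the share was 15.8% (interval 11.9 to 20.8) against 21.9%. The middle 50% of the length of each autosome held 42.4% of the autosomal members (interval 36 to 49.0) against 44.9%.

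By nearest TSS, the lists of genes, drawn up by gene name prefix, held few members each. Genes of the same class under other names were not counted. Ribosomal protein genes, which encode parts of the ribosome, were nearest to 5 members (1.93%, against 0.265% of the other ranked peaks). These were peak 28 (chrIII:3867428-3867691) by rpl-3 at 142 pooled, 63.0 in replicate 1 and 72.8 in replicate 2, peak 49 (chrIV:654811-655074) by rpl-15 at 114, and peak 68 (chrI:13953270-13953533) by rps-6 at 99.3. Peak 153 (chrII:11091489-11091752) by rpl-42 had 76.9, and peak 226 (chrI:13652603-13652866) by rpl-31 had 67.3. Their distances to the TSS were 294, 367, 866, 1092 and 469 bp. Peaks 68 and 226 lay past the 3′ ends of rps-6 and rpl-31, 199 and 214 bp from them. Histone genes were nearest to 4 of the 5 peaks past histone gene ends (1.54% of members, against 0.111%).

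Collagen genes, whose products build the cuticle, were nearest to 3 members (1.16%, against 0.666%): peak 91 (chrII:14094829-14095092) by col-87 at 90.4, peak 151 (chrIV:4240073-4240336) by col-34 at 77 and peak 185 (chrIII:11703427-11703690) by col-95 at 72.4. Chaperone genes named hsp or dnj were nearest to 2 (0.772%, against 0.181%). Of these, hsp-1 was nearest to peak 75 (chrIV:17281233-17281496) at 95.2, and dnj-28 to peak 110 (chrI:2996248-2996511) at 83.6, 108 bp from its TSS. The summit of peak 75 lay 35 bp past the 3′ end of hsp-1 and 2406 bp from its TSS. Homeobox genes named ceh, which encode transcription factors, were nearest to 4 (1.54%, against 0.501%). These were peak 112 (chrX:14211197-14211460) by ceh-37 at 83.3 and peak 183 (chrI:1123808-1124071) by ceh-45 at 72.6. The others were peak 199 (chrIV:6809751-6810014) by ceh-48 at 71.0 and peak 250 (chrI:5839972-5840235) by ceh-12 at 60.4. Chemoreceptor genes of the families searched, the largest list, were nearest to 12 members (4.63%, against 4.64%). Nuclear hormone receptor genes were nearest to 1 member (0.386%, against 1.72%). F-box A and B genes were nearest to 4 (1.54%, against 1.30%), unc genes to 3 (1.16%, against 0.721%) and BTB and MATH genes to 1 (0.386%, against 0.345%). C-type lectin, major sperm protein and glutathione transferase genes were nearest to 2 members each, or 0.772%, against 0.897%, 0.142% and 0.162% of the other ranked peaks. Cytochrome P450, UDP-glucuronosyltransferase, and lin and let genes were nearest to 0, against 0.256%, 0.131% and 0.560%.

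Members within 5 kb of each other formed 15 local groups with 33 members, and in 7 groups all members were of 1 sequence family. No count of such groups is given for the other ranked peaks. The largest groups of members had 3 each. They lay at chrII:1452037-1458143 (signals 91.9 to 125), chrIII:2494784-2499611 (120 to 145) and chrV:13642287-13646072 (68.4 to 82.7). The pairs on chromosome III were at chrIII:1601501-1604119, where peaks 10 and 73 both had both boxes, at chrIII:2030829-2031512, where peaks 13 and 64 did so although they were not of 1 family, and at chrIII:2060967-2065285. On IV they were at chrIV:2664947-2665933, chrIV:3050334-3053243, chrIV:4725473-4728187 and, past the histone genes, chrIV:11323804-11327277. On X they were at chrX:3631338-3631923, chrX:16931386-16932101 and chrX:17442633-17445023. The other pairs were at chrI:10417136-10418216 and chrII:695101-697072.

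A remainder of 66 members had neither box, no match to a small RNA gene, no annotated noncoding gene at the summit, no relative among the members and 1 copy in the genome. Their pooled signals ran from 40.4 to 142 with a median of 74.3, their median GC content was 45.5%, and 2 of them had own thresholded peaks in both replicates. A TSS lay within 500 bp of 26 (39.4%, interval 28.5 to 51.5), against 22.4% of all members. The choice itself takes out the 23 relatives of Y94H6A.t1, none of which lay within 500 bp of a TSS. No share is given for other ranked peaks chosen in the same way. The highest were peak 28 by rpl-3, peak 42 (chrIII:4899887-4900150) at 120, with 67.9 in replicate 1 and 47.7 in replicate 2, and peak 46 (chrI:12654662-12654925) at 116, with 60.6 and 57.9. Peak 46 had no thresholded peak of its own in either replicate.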

How the data were processed

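Anti-GFP ChIP-seq of 2 replicates was analysed from the authors' deposited peak lists on ce11. The deposited signal is the peak caller's enrichment per peak, in arbitrary units. The deposited −log10 value is that of the global IDR. No source used here gives the aligner, the caller or the read depth, so no depth-based limit was set.

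Overlapping peaks of the 2 pooled thresholded lists were counted once, the higher kept. Genes came from Ensembl release 115 on WBcel235, the assembly of ce11, and pseudogenic tRNA genes and symbols shared by several Ensembl genes from RefSeq. Sequences come from the RefSeq genome. Replicate signal is the highest overlapping peak in that replicate's ranked list, in place of the unnamed columns first planned. Similarity used BLASTN 2.17.0 (E-value at most 0.001). Shares have 95% Wilson intervals and no test, since there was 1 group and no comparison between groups. Named peaks were the 20 highest, the highest of each box class, local groups, peaks by listed genes, matches over 50 bp and those at the threshold. Members and lists were chosen with earlier results of these data known, and the families, inverted repeat and remainder after seeing the sequences. Code was tested on simulated data.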

Additional observations from a re-analysis of the deposited data

Results flagged for a closer look

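Some intergenic peaks past the IDR threshold were in neither pooled thresholded list. In the ranked lists, 137 peaks with a global IDR of at most 0.01 overlapped no thresholded peak, and 122 of them met the position rule. They were picked out because they lie outside the lists used above and their signal can be far higher. Their pooled signals had a median of 141, and 29 exceeded the highest member. The strongest, at chrX:15810947-15811198, had a signal of 4542, with 2497 in replicate 1 and 2234 in replicate 2, against 235 for the highest member. Of the 122, 5.74% had 1 copy in the genome (interval 2.81 to 11.4) against 47.1% of members, and the median was 12 copies. An A or B box was found at 10.7% (interval 6.33 to 17.4), and the median GC content was 41.6%. None lay within 10 kb of a member. These 122 are counted among the 35910 other ranked peaks, of which they are 0.340%. Why these peaks were left out is not given in the sources used here.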

How the results depend on the processing

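Over 79 values under alternative settings, 44 planned and 2 added ones stayed within the 95% interval of the reported value (for the number of members, within 1.5 times), and 28 planned and 5 added ones did not. With either pooled list alone the median signal moved from 79.9 to 83.3 (conservative) or 83.6 (other). A global IDR of at most 0.001 left 44 members, with a median signal of 147, 59.1% with an A or B box, a median GC of 50.5%, 13.6% within 500 bp of a TSS, 88.6% with own thresholded peaks in both replicates, 38.6% resembling tRNA genes and 56.8% sharing sequence. Each replicate's thresholded list alone, which leaves out the other replicate, gave 66 members. Over both, median signal on that replicate's own scale was 66.0 to 68.9, boxes 48.5% to 53.0%, GC 49% to 50%, TSS within 500 bp 15.2% to 18.2%, X 15.2% to 18.2%, own peaks in both replicates 63.6% to 65.2%, tRNA resemblance 30.3% to 37.9% and shared sequence 45.5% to 51.5%. Requiring the whole peak to be intergenic gave 17.0% within 500 bp of a TSS. Exact boxes only gave 16.2%, a window of 100 bp a GC of 45.8%, TSS distances of 200 and 1000 bp 9.27% and 37.8%, and shared stretches of 100 bp at 90% identity 23.2%. Chosen after seeing the data, 1 member per family gave 22.7% with a box and 7.73% resembling tRNA genes. Putting back the left-out peaks, also chosen then, gave a median signal of 87.6, 22.8% with a box and a GC of 45.5%. No paired analysis was possible because there was 1 group and no result came from a test. Depth was unknown, and how reads of copied sequences were placed is not known here.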
